A study of Saccharomyces cerevisiae with 12 samples.

Results

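Small nuclear and small nucleolar RNAs were read from the rows of a yeast count table whose identifiers start with snR in any letter case. These were 158 of 12768 rows, beside 5585 rows of protein-coding genes, 6933 other non-coding rows and 92 rows of spike-in RNAs. The 158 rows carried 79 names: 78 rows held the small RNA itself, 78 rows had RT in their identifier, and 2 rows ended in A. The labels do not say what RT stands for; of 77 RT rows with a small RNA row of the same name, 64 began within 10 bases of its 3′ end on the same strand. By coordinates and strand, 14 rows lay wholly inside a protein-coding row (8 small RNA rows and 6 RT rows in 8 host genes), 25 overlapped one in part or contained one, and 119 lay outside (65 small RNA rows, 52 RT rows and both A rows). Of those 119 rows, 96 overlapped another non-coding row of the table on their own strand, 61 overlapped another snR row, and 6 overlapped neither, so a read could be placed on more than 1 row. Of the small RNA rows, 46 held C/D RNAs, 29 H/ACA RNAs and 3 spliceosomal RNAs, and all 78 matched a gene among the 82 small nucleolar and small nuclear RNA genes of RefSeq. The row covered at least 90% of the RefSeq RNA in 65 cases and under 50% in 4. The rows of SNR7 and the small RNA row of SNR73 were not analysed here.

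The study set temperature-sensitive (ts) proteasome mutants of Saccharomyces cerevisiae against a reference strain, with 4 libraries per group that the series describes as biological replicates. WT was MATa his3Δ1 leu2Δ0 met15Δ0 ura3Δ0, and the names of its replicates 3 and 4 hold By4741. The mutants are labelled with the same alleles along with lys2Δ0 and can1Δ::LEU2-MFA1pr::His3, and either pup2-ts::URA3 (PUP2 encodes a subunit of the proteasome core particle) or rpn5-ts::URA3 (RPN5 encodes a lid subunit of the regulatory particle), so the ts alleles and these markers cannot be told apart. All cells were untreated, grew in YPD to an optical density of about 0.5, and gave polyadenylated RNA from hot acid phenol extraction with DNAse treatment; no growth temperature is stated.

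Strain markers went against 5 of the 12 labels, and pup2-ts and rpn5-ts below mean the libraries so labelled. The library labelled rpn5-ts replicate 1 had 213 CPM (counts relative to library size) of LYS2 and 249 CPM of MET17, where the other rpn5-ts libraries had at most 0.181 CPM of LYS2 and 0.0906 CPM of MET17. The 4 libraries labelled pup2-ts had 196 to 587 CPM of MET17, the gene named met15Δ0 in their label, where WT had at most 0.0931 CPM. They therefore differed from WT in MET17 as well as in the labelled markers, which cannot be told apart from the pup2-ts allele, and all 4 pup2-ts libraries share this, so no comparison without it can be had. Sample names split the libraries a second way: DNAse is part of the name of replicates 3 and 4 of every group and of no replicate 1 or 2, and what this stands for is not stated. Counts on protein-coding rows ranged from 18501508 (rpn5-ts replicate 2) to 60599134 (WT replicate 4) per library. CPM here take the counts on protein-coding rows as the total, scaled by normalization factors from the same rows, and values are listed for replicates 1 to 4 in that order, so the first rpn5-ts value is always that of the library labelled rpn5-ts replicate 1, called the doubted library because it differs from the rest of its group.

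Small nucleolar RNAs guide the chemical modification of ribosomal RNA: C/D RNAs direct methylation of the ribose, H/ACA RNAs direct the change of uridine to pseudouridine, and U3 (SNR17A and SNR17B) serves in the processing of the pre-ribosomal RNA. Most are made by RNA polymerase II in yeast, either as units of their own, as several RNAs on 1 transcript, or from introns of host genes. Their transcripts end through Nrd1, Nab3 and Sen1, TRAMP complexes add short A tails, and the nuclear exosome trims the ends. Mature forms carry no A tail, so a library of polyadenylated RNA is not built to hold them, and a row here can count tailed precursors, decay intermediates or read-through in place of the mature RNA.

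The RNAs that the results turn on are shown as RefSeq gives them for build R64, the assembly of sacCer3, 5′ to 3′ as DNA letters. Capitals mark ACA within the last 10 bases of H/ACA RNAs, and TGATGA within the first 15 and CTGA within the last 15 bases of C/D RNAs. SNR31 (chrXV:841958-842182, minus strand), SNR49 (chrXIV:716120-716284, plus strand) and SNR33 (chrIII:142364-142546, minus strand) are H/ACA RNAs whose rows fell in both mutants.
SNR31: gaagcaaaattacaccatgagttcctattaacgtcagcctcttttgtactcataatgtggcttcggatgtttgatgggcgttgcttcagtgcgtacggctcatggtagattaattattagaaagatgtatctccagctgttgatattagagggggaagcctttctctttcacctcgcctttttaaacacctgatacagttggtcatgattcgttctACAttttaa
SNR49: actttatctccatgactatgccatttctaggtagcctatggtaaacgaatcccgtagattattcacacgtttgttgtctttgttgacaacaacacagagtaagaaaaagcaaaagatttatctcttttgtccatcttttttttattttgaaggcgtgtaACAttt
SNR33: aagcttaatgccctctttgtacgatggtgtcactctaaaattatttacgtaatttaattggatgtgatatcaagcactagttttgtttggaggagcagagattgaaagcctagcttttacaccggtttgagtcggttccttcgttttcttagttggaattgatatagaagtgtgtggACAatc
SNR52 (chrV:431129-431220, minus strand), a C/D RNA, had the largest difference between the name forms; SNR87 (chrXI:431030-431138, minus strand) is the C/D RNA beside the row with the steadiest fall; and SNR76 (chrXIII:297725-297833, plus strand) is the C/D RNA with the highest level per length.
SNR52: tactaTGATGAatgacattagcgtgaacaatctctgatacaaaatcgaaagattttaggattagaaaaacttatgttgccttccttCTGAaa
SNR87: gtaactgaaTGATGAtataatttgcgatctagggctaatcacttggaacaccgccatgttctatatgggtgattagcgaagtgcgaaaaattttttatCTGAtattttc
SNR76: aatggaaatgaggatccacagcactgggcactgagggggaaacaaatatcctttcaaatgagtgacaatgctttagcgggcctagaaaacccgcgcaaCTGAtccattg
On the strand of the RNA, ACA in the last 10 bases was held by 18 of the 29 H/ACA RNAs (62.1%) and by 7 of the 46 C/D RNAs (15.2%). On the other strand the same letters in the same window were held by 13.8% and 6.52%. TGATGA in the first 15 bases was held by 35 of the 46 C/D RNAs (76.1%) and 1 of the 29 H/ACA RNAs (3.45%), and CTGA in the last 15 bases by 44 (95.7%) and 1 (3.45%); on the other strand TGATGA was in 0 of either class, and CTGA in 2 C/D RNAs (4.35%) and 1 H/ACA RNA (3.45%). SNR76 holds CTGA in its window and not TGATGA.

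Levels were low; in bulk RNA, fewer cells with an RNA and less of it per cell cannot be told apart. Per kilobase of row, the 65 small RNA rows outside genes had a median of 9.67 CPM (range 0.962 to 62.1), the 52 RT rows outside genes a median of 2.71 CPM, and protein-coding rows a median of 43.1 CPM. H/ACA rows among them had a median of 13.2 CPM per kilobase and C/D rows 9.67, with median lengths of 311 and 120 bases and median totals of 1666 and 450 counts over the 12 libraries. In all, 145 of the 158 rows passed the filter on low counts and were tested among 11733 rows; the other 13, with 27 to 110 counts each over all libraries, were SNR5-RT*, SNR6, SNR14, SNR37-RT, SNR43-RT, SNR52-RT*, snR53, SNR58, SNR58-RT, SNR65, SNR81-RT, SNR85-RT and SNR190-RT.

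The highest levels per kilobase outside genes were those of SNR76 (62.1 CPM per kilobase), SNR33 (59.5) and SNR49 (50.7), followed by SNR86 (48.1). SNR76, which guides methylation of the large ribosomal subunit RNA, read 7.80, 6.48, 6.47 and 7.17 CPM in WT, against 6.77, 9.74, 7.14 and 7.60 in pup2-ts and 8.24, 5.73, 4.67 and 5.66 in rpn5-ts. Its groups overlapped, and its log2 difference from WT was 0.16 in pup2-ts and -0.20 in rpn5-ts (adjusted p = 0.59 and 0.51, edgeR). SNR86, an H/ACA RNA in a row of 1063 bases, read 37.8 to 50.2 CPM in WT, against 48.9 to 57.1 in pup2-ts and 46.6 to 58.6 in rpn5-ts, also with overlap.

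Of the spliceosomal RNAs, U1 alone had enough counts for a test. SNR14, which encodes U4, had 89 counts and SNR6, which encodes U6, 63 counts over the 12 libraries, and neither was tested; SNR14 read 0 to 0.666 CPM and SNR6 0 to 0.464 CPM. SNR19, which encodes U1, read 7.01, 9.08, 5.82 and 4.88 CPM in WT, against 7.32, 11, 6.34 and 6.90 in pup2-ts and 10.6, 10.8, 11 and 6.14 in rpn5-ts. The rpn5-ts values reached above those of WT except for replicate 4, which lay inside the WT range. The log2 difference of SNR19 from WT was 0.53 ± 0.25 (SE, n = 4) in rpn5-ts (adjusted p = 0.19, edgeR) and 0.24 ± 0.25 in pup2-ts (adjusted p = 0.54). With the replicate number as a block, SNR19 in rpn5-ts passed the threshold (log2 0.54, adjusted p = 0.027).

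By count, the form of the sample name separated these rows more than either mutant did without a term for the form. The designs are unlike, since the comparison of forms has the group as a term and more libraries on each side. With the form as a term, 60 of the 145 rows fell in pup2-ts and 52 in rpn5-ts, where 31.2% and 24.2% of all rows did. Replicates 3 and 4 were set against replicates 1 and 2 with the group as a term, and 92 of the 145 rows were lower (63.4%) at an adjusted p under 0.05, where 32.2% of all 11733 rows were lower. A single row was higher, where 19.2% of all rows were, and 51.4% of all rows were called in either direction. The median log2 difference was -0.65 over the snR rows, -0.13 over all rows, -0.04 over protein-coding rows and -0.22 over other non-coding rows, and 135 of the 145 rows were below 0. Without the library labelled rpn5-ts replicate 1, 87 rows were lower and 2 higher, where 33.4% of all rows were lower. With each library left out in turn, the number called ranged from 78 to 102, where 28.0% to 33.4% of all rows were lower.

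**Figure D1:**
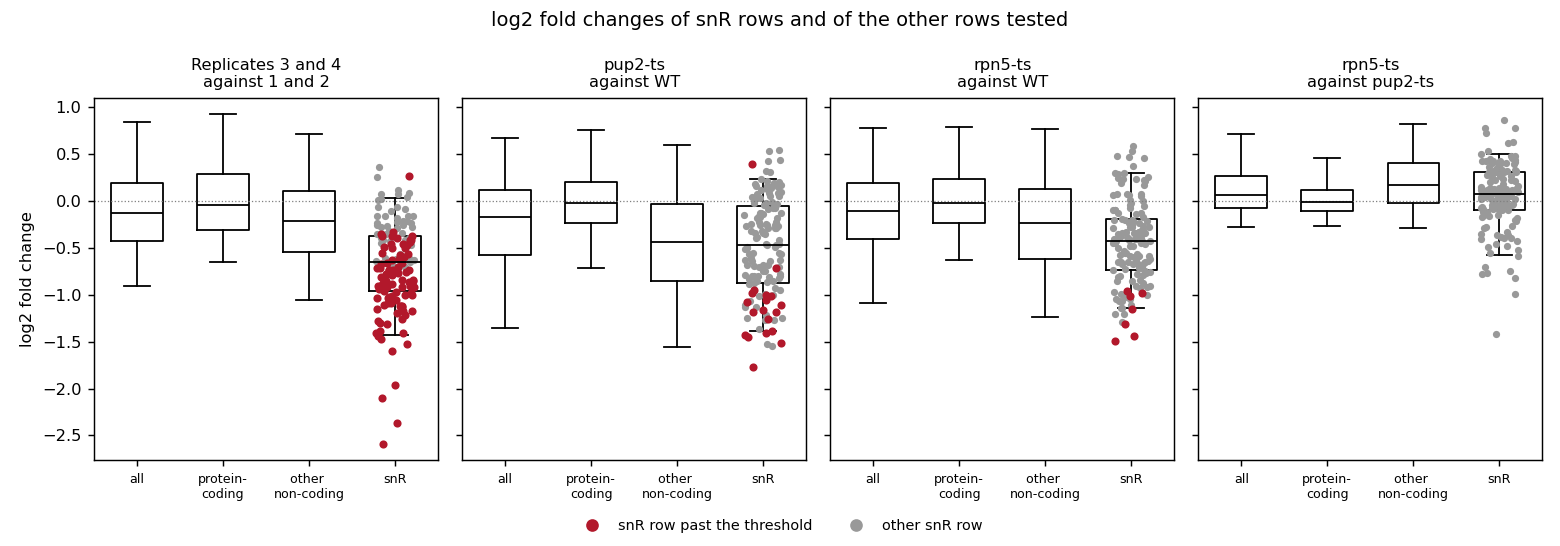
log2 fold changes (vertical axis) of all rows, protein-coding rows, other non-coding rows and snR rows in 4 comparisons; boxes span the quartiles with the median as a line, whiskers run from the 5th to the 95th percentile, and each point is 1 of the 145 snR rows tested (red where past the threshold). The snR rows sit lowest in the comparison of name forms, with a median of -0.65, and at medians of -0.47 and -0.43 in pup2-ts and rpn5-ts against WT.

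SNR52 had the largest fall between the name forms. It read 0.791, 0.981, 0.372 and 0.215 CPM in WT, against 0.794, 1.41, 0.174 and 0.0466 in pup2-ts and 1.42, 1.47, 0.136 and 0.107 in rpn5-ts. Every library of replicates 1 and 2 lay above every library of replicates 3 and 4, and the log2 difference was -2.59 ± 0.33 (SE; adjusted p = 1.9e-05, edgeR). SNR52 has an RNA polymerase III promoter, and its row covers 80.4% of the RNA printed above. The row had 223 counts over the 12 libraries, so its values in replicates 3 and 4, down to 0.0466 CPM, rest on few reads.

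SNR14-RT, next to U4, read 1.47, 1.26, 0.186 and 0.215 CPM in WT, against 0.311, 0.821, 0.139 and 0.140 in pup2-ts and 0.372, 0.710, 0.136 and 0.107 in rpn5-ts. Here too the 2 forms did not overlap (log2 -2.37 ± 0.32, adjusted p = 2.9e-05, edgeR). SNR45-RT, next to a C/D RNA that guides acetylation of the small subunit RNA, read 2.46, 3.71, 0.512 and 0.662 CPM in WT, against 0.518, 1.41, 0.244 and 0.326 in pup2-ts and 1.15, 1.47, 0.317 and 0.320 in rpn5-ts. It fell within every group, while the forms overlapped across groups through pup2-ts replicate 1 (log2 -2.10 ± 0.26, adjusted p = 1.5e-05). snR53-RT read 0.904, 0.841, 0.326 and 0.268 CPM in WT, against 0.483, 1.49, 0.0348 and 0.233 in pup2-ts and 0.372, 2.18, 0.408 and 0.320 in rpn5-ts, and in rpn5-ts its forms overlapped (log2 -1.96 ± 0.49, adjusted p = 0.0045). All 4 rows kept the call with each of the 12 libraries left out in turn.

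Both genes of U3 fell with the name form as well. SNR17A read 5.43, 7.15, 3.63 and 2.59 CPM in WT, against 6.04, 9.5, 2.44 and 2.94 in pup2-ts and 8.70, 8.85, 2.72 and 2.72 in rpn5-ts. SNR17B read 14.8, 17.4, 10.9 and 12.9 CPM in WT, against 20.4, 24.6, 6.86 and 10.3 in pup2-ts and 20.0, 15.7, 8.11 and 6.89 in rpn5-ts. In both rows the 2 forms did not overlap, with log2 differences of -1.41 ± 0.16 and -1.02 ± 0.17 (adjusted p = 7.1e-06 and 0.00018, edgeR). Between groups neither passed the threshold: SNR17A differed from WT by 0.16 in pup2-ts and 0.30 in rpn5-ts, and SNR17B by 0.15 and -0.14 (log2; adjusted p = 0.72 to 0.86). The SNR17A row covers 47.6% of its RNA, and the 2 genes are near-identical copies, so reads can be split between them. SNR19 was lower with the name form by log2 -0.46 ± 0.15 (adjusted p = 0.020, edgeR), a call lost without WT replicate 2 (adjusted p = 0.0543), WT replicate 4 (0.0527), pup2-ts replicate 2 (0.0630) or rpn5-ts replicate 4 (0.0571).

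The single rise with the name form was in SNR51-RT, a row of 2858 bases that contains the gene NVJ2. It read 72.8, 77.9, 96.0 and 92.5 CPM in WT, against 88.0, 83.4, 106 and 97.9 in pup2-ts and 88.7, 93.8, 105 and 107 in rpn5-ts (log2 0.26 ± 0.049, adjusted p = 0.00044, edgeR). Replicates 3 and 4 were higher within each group.

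By kind of row, lower calls numbered 42 of 60 small RNA rows and 25 of 46 RT rows outside genes, 10 of 14 rows inside genes and 14 of 23 rows that overlap genes in part. C/D and H/ACA rows outside genes had the same median log2 difference, -0.66, with 22 of 34 and 19 of 25 rows lower. In the unit that runs from SNR78 to SNR72, several C/D RNAs made as 1 transcript, 2 of 13 rows were lower and the median was -0.16, which is fewer than the 32.2% of all rows and close to their median of -0.13. Over all rows of such shared transcripts outside genes, 13 of 27 were lower with a median of -0.34, where the other rows outside genes had 55 of 81 lower with a median of -0.76. Rows under 150 bases had 14 of 31 lower (median -0.42) and longer ones 54 of 77 (median -0.72). Level and length moved with these counts, and their part in them was not tested.

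In pup2-ts against WT, 18 of the 145 rows fell (12.4%) and 1 rose, where 14.5% of all rows fell, 6.49% rose and 21% did either. In this fit the share of snR rows that fell was below that of all rows and that of other non-coding rows (20.9%), and this order turned with the design: 55 of 145 fell with the replicate block where 28.5% of all rows did, 60 of 145 with the form of name as a term where 31.2% did, and 30 of 145 in DESeq2 where 19.4% did. The median log2 difference was -0.47 over snR rows, -0.43 over other non-coding rows, -0.02 over protein-coding rows and -0.17 over all rows. In 21 of the 145 snR rows all 4 pup2-ts libraries lay below all 4 WT libraries, where 16.9% of all rows did so. In 2 rows they lay above them, where 8.14% of all rows did. Both mutants were compared with the same 4 WT libraries. Library sizes from all rows in place of protein-coding rows moved the median of all rows up by 0.17, to 1351 higher and 1149 lower rows in place of 762 and 1701; the snR rows then had a median of -0.29, 10 falls and 1 rise.

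Small RNA rows outside genes were also counted by class. Of the 25 H/ACA rows 5 fell in pup2-ts (20%), near the 14.5% of all rows and the 20.9% of other non-coding rows, with a median log2 difference of -0.56 and 24 of 25 below 0; of 34 C/D rows 1 fell (2.94%), with a median of -0.18. The difference between the classes was not tested, and the classes also differed in length and level, as given above. The 5 H/ACA rows were SNR31, SNR82, SNR49, SNR33 and SNR11, of which SNR31, SNR82 and SNR11 were picked here after their values were seen.

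**Figure D2:**
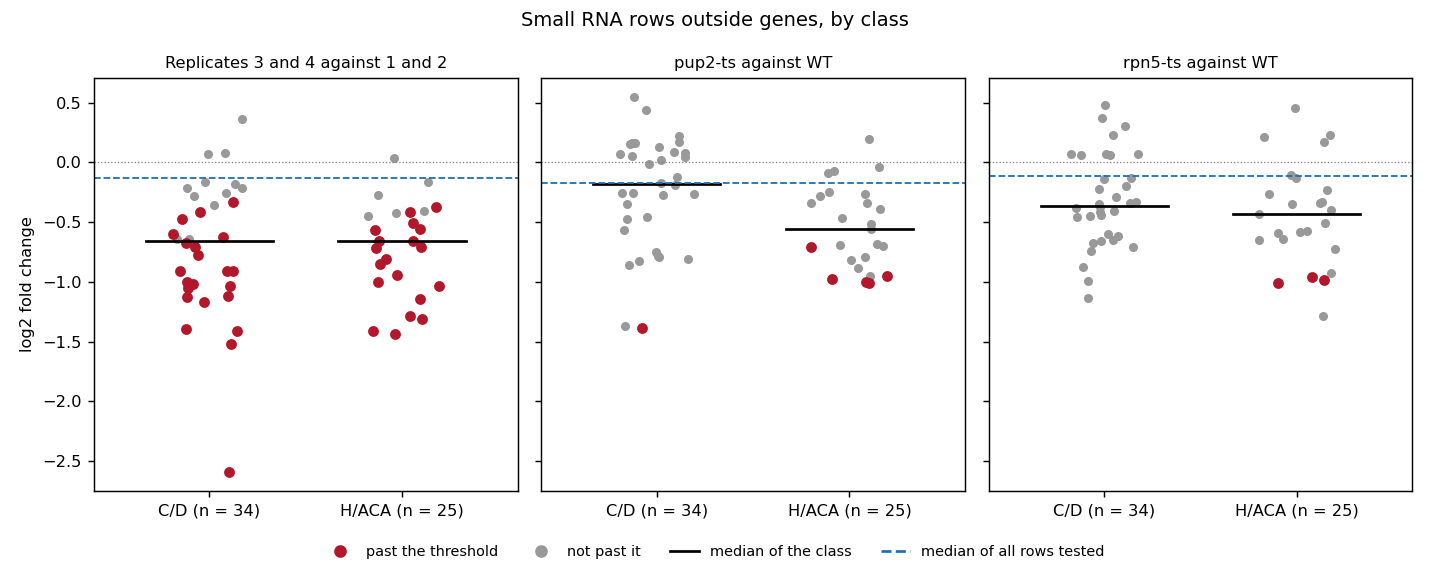
log2 fold changes (vertical axis) of C/D and H/ACA rows outside genes in 3 comparisons; points are rows (red where past the threshold), black lines the class medians and the dashed line the median of all rows tested. The classes share a median of -0.66 between name forms and stand in pup2-ts at -0.18 for C/D and -0.56 for H/ACA rows.

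SNR31, which guides pseudouridylation of the small subunit RNA, read 10.9, 16.3, 13.2 and 13.1 CPM in WT, against 7.39, 9.15, 4.14 and 5.87 in pup2-ts and 7.12, 8.19, 6.16 and 5.55 in rpn5-ts. All 8 mutant libraries lay below all 4 WT libraries. The log2 difference was -1.01 ± 0.23 in pup2-ts (SE, n = 4; adjusted p = 0.0099, edgeR) and -0.98 ± 0.23 in rpn5-ts (adjusted p = 0.016). The pup2-ts call held with each library left out; the rpn5-ts call was lost without rpn5-ts replicate 3 (adjusted p = 0.0545) or replicate 4 (0.0505). The row, chrXV:841873-842183, also overlaps other rows of the table on its strand.

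SNR49, which guides pseudouridylation in both subunits, read 12.1, 19.9, 16.9 and 17.0 CPM in WT, against 11.1, 12.1, 4.77 and 6.20 in pup2-ts and 8.42, 9.47, 6.70 and 8.01 in rpn5-ts. The groups did not overlap, although pup2-ts replicate 2 and WT replicate 1 round to the same value. It fell by 0.95 ± 0.27 on the log2 scale in pup2-ts (adjusted p = 0.029, edgeR) and by 1.01 ± 0.27 in rpn5-ts (adjusted p = 0.030). Left out singly, these libraries ended the pup2-ts call: WT replicate 2 (adjusted p = 0.0784) or 4 (0.0535), or pup2-ts replicate 3 (0.0652) or 4 (0.0854), and these the rpn5-ts call: WT replicate 2 (0.0835), 3 (0.0556) or 4 (0.0598), or rpn5-ts replicate 3 (0.0913) or 4 (0.0700).

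SNR33, which guides pseudouridylation of the large subunit RNA, read 29.5, 37.5, 26.7 and 25.5 CPM in WT, against 19.4, 22.1, 8.74 and 10.3 in pup2-ts and 19.3, 18.6, 11.7 and 11.4 in rpn5-ts. No mutant library reached the lowest WT value, and within each group replicates 3 and 4 were lowest. The log2 difference was -0.98 ± 0.30 in pup2-ts (adjusted p = 0.035, edgeR) and -0.96 ± 0.30 in rpn5-ts (adjusted p = 0.0498). The pup2-ts call was lost without WT replicate 1 or 2 or pup2-ts replicate 3 or 4 (highest adjusted p = 0.0984), and the rpn5-ts call without 8 of the 12 libraries (highest adjusted p = 0.139), namely the 4 WT replicates, pup2-ts replicate 1 and rpn5-ts replicates 2, 3 and 4. With the replicate number as a block the adjusted p was 0.00031 and 0.00063.

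SNR82, an H/ACA guide for the large subunit, read 10.5, 13.1, 9.54 and 8.89 CPM in WT, against 4.94, 8.41, 3.24 and 4.43 in pup2-ts and 8.02, 7.90, 6.43 and 5.77 in rpn5-ts. It fell by 1.0 ± 0.26 on the log2 scale in pup2-ts (adjusted p = 0.018, edgeR; lost without WT replicate 2, 0.0549, or pup2-ts replicate 4, 0.0564), and differed by -0.58 in rpn5-ts (adjusted p = 0.16; 0.024 with the block). SNR11, also a guide for the large subunit, read 9.89, 9.53, 9.87 and 8.55 CPM in WT, against 6.25, 8.37, 4.25 and 4.2 in pup2-ts and 7.55, 6.82, 5.89 and 4.91 in rpn5-ts. Its fall of 0.71 ± 0.22 in pup2-ts (adjusted p = 0.041, edgeR) was lost without 8 of the 12 libraries, all but pup2-ts replicate 2 and rpn5-ts replicates 1, 2 and 4. Its difference of -0.58 in rpn5-ts did not pass in edgeR without the block (adjusted p = 0.10). It passed with the block (adjusted p = 0.018) and in DESeq2 (adjusted p = 0.043).

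**Figure D3:**
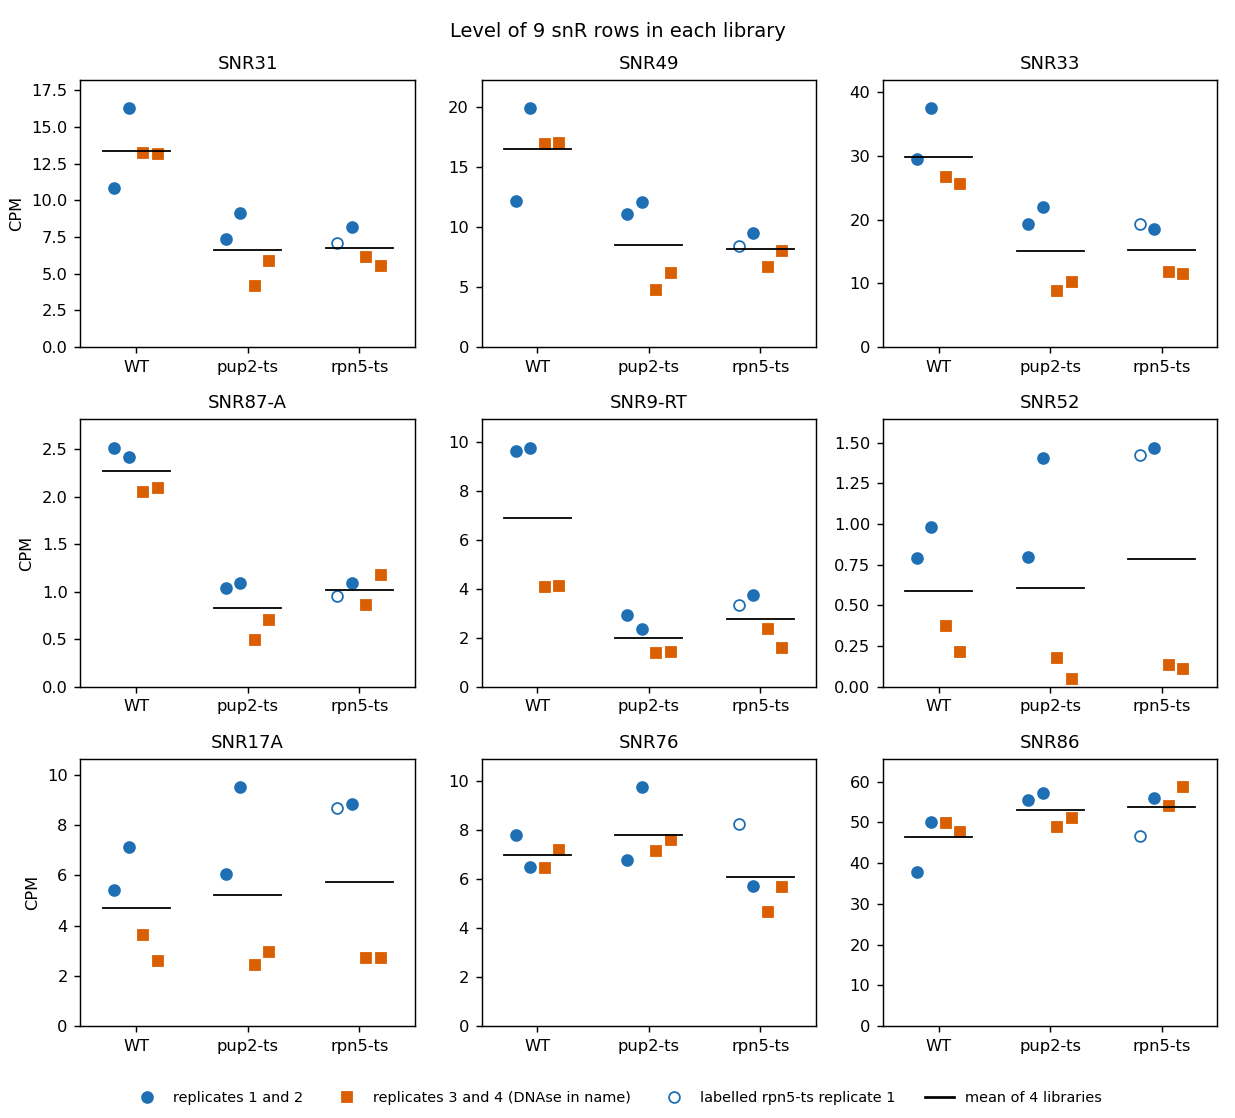
CPM (vertical axes, each from 0) of 9 rows in each library of WT, pup2-ts and rpn5-ts; circles are replicates 1 and 2, squares replicates 3 and 4, the open circle the doubted library, and lines the mean of 4 libraries. SNR31, SNR33, SNR49, SNR87-A and SNR9-RT lie below WT in both mutants, SNR52 and SNR17A separate by name form in every group, and SNR76 and SNR86 overlap throughout.

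The row SNR87-A (chrXI:430676-430783, minus strand) had the lowest adjusted p among the snR rows in both mutants. It lies 3′ of SNR87 and holds none of the RNA printed above. It read 2.52, 2.42, 2.05 and 2.09 CPM in WT, against 1.04, 1.09, 0.487 and 0.699 in pup2-ts and 0.960, 1.09, 0.861 and 1.17 in rpn5-ts. Every mutant library was below every WT library, by log2 -1.45 ± 0.25 in pup2-ts (adjusted p = 0.0019, edgeR) and -1.15 ± 0.24 in rpn5-ts (adjusted p = 0.0093), and both calls held with each of the 12 libraries left out. SNR87* itself, the only C/D row outside genes that fell in pup2-ts, read 1.24, 2.0, 0.559 and 1.29 CPM in WT, against 0.553, 0.821, 0.209 and 0.373 in pup2-ts and 0.805, 0.947, 0.951 and 0.641 in rpn5-ts. It overlapped between groups through WT replicate 3 (log2 -1.39 ± 0.41 in pup2-ts, adjusted p = 0.032; -0.61 in rpn5-ts, adjusted p = 0.32), and the pup2-ts call was lost without WT replicate 1, 2 or 4 or pup2-ts replicate 1, 3 or 4 (highest adjusted p = 0.0944).

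The largest fall in pup2-ts was in SNR9-RT (chrXV:407044-407908, minus strand), a row of 865 bases that overlaps the row of the H/ACA RNA SNR9 in part. It read 9.64, 9.78, 4.10 and 4.11 CPM in WT, against 2.94, 2.35, 1.36 and 1.40 in pup2-ts and 3.34, 3.74, 2.36 and 1.6 in rpn5-ts. The groups did not overlap, although WT itself ran from 4.10 to 9.78 by name form. The log2 difference was -1.77 ± 0.39 in pup2-ts (adjusted p = 0.0079, edgeR), held with each library left out, and -1.31 ± 0.38 in rpn5-ts (adjusted p = 0.040). The rpn5-ts call ended when the doubted library (adjusted p = 0.0507) was left out, and likewise without WT replicate 1 (0.100) or 2 (0.114), pup2-ts replicate 2 (0.0507) or rpn5-ts replicate 3 (0.112) or 4 (0.102). The row of SNR9 differed by -0.82 in pup2-ts (adjusted p = 0.16, edgeR) and -0.51 in rpn5-ts (adjusted p = 0.41). Through the overlap, a read can be placed on both rows.

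SNR35-RT, next to an H/ACA RNA predicted to act on the small subunit, read 1.47, 1.44, 1.1 and 0.948 CPM in WT, against 0.414, 0.587, 0.209 and 0.653 in pup2-ts and 1.08, 1.04, 0.544 and 0.427 in rpn5-ts. It fell by 1.43 ± 0.37 on the log2 scale in pup2-ts, without overlap (adjusted p = 0.018, edgeR; 0.0504 without pup2-ts replicate 3). The other falls in pup2-ts were those of SNR60-RT, given with its host gene below, and of SNR189-RT, SNR69-RT, SNR34-RT*, SNR31-RT, SNR71-RT, snR161-RT, SNR82-RT and snr6-RT, at log2 -1.41 to -1.06. Of all 46 tested RT rows outside genes, 7 fell in pup2-ts (15.2%) and 3 in rpn5-ts (6.52%), near the 14.5% and 7.34% of all rows.

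The 1 rise in pup2-ts was in SNR68-RT-FLX1, a row that contains the gene FLX1, which encodes a mitochondrial carrier protein. It read 21.7, 26.1, 22.3 and 22.2 CPM in WT, against 28.4, 27.6, 33.7 and 31.3 in pup2-ts and 27.2, 27.1, 27.2 and 31.2 in rpn5-ts. Neither mutant overlapped WT (log2 0.39 ± 0.11 in pup2-ts, adjusted p = 0.025, edgeR), a call that did not hold when WT replicate 1 (adjusted p = 0.0511), 3 (0.0542) or 4 (0.0591) or pup2-ts replicate 3 (0.0826) or 4 (0.0681) was left out. Over the 12 libraries, the rows whose log2 CPM ran most like it were SNR51-RT (Pearson r = 0.57), SNR44-RT-RPS22B (0.56) and SNR86 (0.54), libraries that share depth and name form.

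The count of calls in pup2-ts depended on the libraries and the design. With the replicate number as a block, 2 rows rose, where 12.6% of all rows did, and 11 of 25 H/ACA and 6 of 34 C/D rows outside genes fell. Replicates 1 and 2 alone gave 20 falls of 151 rows tested (15% of all rows), and replicates 3 and 4 alone 80 falls and 2 rises of 132 (36.2% and 22.1% of all rows), with 18 of 23 H/ACA and 13 of 30 C/D rows lower in the latter and 2 of 25 and 1 of 35 in the former. Without WT replicate 1, 10 of 145 rows fell, where 10.6% of all rows did. Without WT replicate 2, 5 of 145 fell and 1 rose, where 9.25% of all rows fell. Without pup2-ts replicate 2, 34 of 147 fell and 1 rose, where 14.2% of all rows fell. Without pup2-ts replicate 3, 5 of 147 fell, and without replicate 4, 5 of 149, where 8.62% and 8.71% of all rows fell. With the doubted library left out there were 16 falls and 1 rise of 145, where 14.6% of all rows fell.

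The pup2-ts effect was also compared between the name forms as an interaction. It differed in 7 of the 145 rows, where 6.74% of all rows differed in either direction and 2.2% were lower in replicates 3 and 4. Each of the 7 was lower in replicates 3 and 4: SNR33, SNR63, SNR39B-RT, SNR49, SNR9, and SNR54 with SNR54-RT, both of which lie in IMD4. SNR63, a C/D guide, read 16.6, 25.7, 16.7 and 18.0 CPM in WT, against 15.5, 17.8, 5.75 and 5.27 in pup2-ts and 14.1, 16.1, 8.34 and 7.48 in rpn5-ts. Replicates 1 and 2 of pup2-ts overlapped those of WT, while replicates 3 and 4 lay far below (log2 -0.34 and -1.65, difference adjusted p = 0.013, edgeR). For rpn5-ts, 0 of the 145 rows differed between forms (9 at an unadjusted p under 0.05), where 2.11% of all rows did. The 7 rows for pup2-ts became 26 without WT replicate 2, 12 without rpn5-ts replicate 2, 11 without the doubted library, 3 without WT replicate 1, 2 without pup2-ts replicate 4, 1 without pup2-ts replicate 3 or rpn5-ts replicate 3 or 4, and 0 without WT replicate 3 or 4 or pup2-ts replicate 1 or 2.

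In rpn5-ts against WT, 7 of the 145 rows fell (4.83%) and 0 rose, where 7.34% of all rows fell, 5.85% rose and 13.2% did either. This order also turned with the design, as 41 of 145 fell with the replicate block where 21.6% of all rows did, and 52 of 145 with the form of name as a term where 24.2% did. In DESeq2 the order did not turn: 16 of 145 fell, where 12.2% of all rows did. At an unadjusted p under 0.05 in edgeR, 29 of the 145 rows passed, where 29.8% of all rows did. In 25 of the 145 rows all 4 rpn5-ts libraries lay below WT, where 12.2% of all rows did so. In 1 row they lay above it, where 7.97% of all rows did. The median log2 difference was -0.43 over snR rows, -0.23 over other non-coding rows, of which 9.49% fell, and -0.11 over all rows. Library sizes from all rows moved the median of all rows up by 0.10, to 1056 higher and 688 lower rows in place of 686 and 861, and left a median of -0.32 with 6 falls and 1 rise among snR rows. The 7 rows were SNR87-A, SNR31, SNR49, SNR33 and SNR9-RT, whose values are given above, with SNR78-RT and SNR189-RT. H/ACA rows outside genes fell in 3 of 25 cases (12%, against 7.34% of all rows; median -0.43) and C/D rows in 0 of 34 (median -0.36; 2 at an unadjusted p under 0.05, and 3 with the replicate block).

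SNR78-RT (chrXIII:297360-297501, plus strand), in the unit of SNR78 to SNR72, read 2.91, 1.23, 1.21 and 2.18 CPM in WT, against 1.11, 2.42, 2.02 and 1.96 in pup2-ts and 1.02, 0.426, 0.498 and 0.801 in rpn5-ts. All rpn5-ts values were below the others, while pup2-ts and WT overlapped. It fell by 1.44 ± 0.38 on the log2 scale in rpn5-ts (adjusted p = 0.027, edgeR), which no longer passed when WT replicate 1 (adjusted p = 0.0693) or 4 (0.0602) or rpn5-ts replicate 2 (0.0676), 3 (0.0828) or 4 (0.0543) was left out. SNR189-RT (chrIII:178335-178599, minus strand), next to an H/ACA RNA that acts on both subunits, read 0.735, 1.89, 0.652 and 0.608 CPM in WT, against 0.311, 0.313, 0.522 and 0.280 in pup2-ts and 0.495, 0.379, 0.227 and 0.214 in rpn5-ts. WT replicate 2 stood far above the rest, the groups did not overlap, and the fall of 1.49 ± 0.44 in rpn5-ts (adjusted p = 0.042) was lost without 8 of the 12 libraries (highest adjusted p = 0.120, without rpn5-ts replicate 3), all but WT replicates 3 and 4, pup2-ts replicate 3 and the doubted library.

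The 19 rows called in pup2-ts and the 7 called in rpn5-ts had 6 in common, 31.6% of the first list and 85.7% of the second, with WT libraries shared by both comparisons. Without the library labelled rpn5-ts replicate 1, 10 rows fell in rpn5-ts, where 7.32% of all rows did. With the replicate block 3 rows rose in rpn5-ts, where 13.6% of all rows did. Under it 10 of 25 H/ACA rows fell, where 21.6% of all rows did. Replicates 1 and 2 alone gave 15 falls of 151 rows tested, where 12.3% of all rows fell. Replicates 3 and 4 alone gave 58 falls and 4 rises of 132, where 24.7% of all rows fell and 24.4% rose. Calls, all of them falls, numbered 3 without WT replicate 1 or 2, where 5.57% and 4.61% of all rows fell. They numbered 4 without WT replicate 4, where 6.64% of all rows fell. They numbered 1 without rpn5-ts replicate 3 or 4, where 4.02% and 4.57% of all rows fell.

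Between the mutants, 0 of the 145 rows passed the threshold in edgeR, where 0.0341% of all rows did, and 0 passed in DESeq2. At an unadjusted p under 0.05 in edgeR, 3 of the 145 passed, where 7.7% of all rows did. In 3 of the 145 rows every rpn5-ts library lay below every pup2-ts library, where 1.54% of all rows did so, and in 0 rows above, where 3.7% of all rows did. The lowest p were those of SNR78-RT, lower in rpn5-ts by log2 -1.42 ± 0.38 (adjusted p = 0.40, edgeR), and SNR55, a C/D RNA predicted to guide methylation of the small subunit RNA. SNR55 read 4.89, 4.84, 3.12 and 3.74 CPM in WT, against 4.77, 6.18, 4.25 and 4.10 in pup2-ts and 3.65, 2.41, 2.08 and 2.72 in rpn5-ts. Each rpn5-ts library was below each pup2-ts library (log2 -0.82 ± 0.23, adjusted p = 0.42, edgeR). Both rows belong to shared transcripts, and the third of the 3 rows, SNR78, does too.

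By unit, the 13 rows of SNR78 to SNR72 had a median log2 difference from WT of 0.17 in pup2-ts, with 0 called and 1 below 0, and of -0.20 in rpn5-ts, with 1 called (SNR78-RT). Between the mutants their median was -0.41 with 11 of 13 below 0 and 0 called. The 5 rows of SNR57, SNR55 and SNR61 had medians of 0.18, -0.35 and -0.58 in the same order. Rows outside genes that are not on shared transcripts had medians of -0.68 in pup2-ts and -0.45 in rpn5-ts, and 0.12 between the mutants.

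Summed counts, as CPM of protein-coding counts without normalization factors, showed the name form too. Rows outside genes drew 521, 570, 352 and 370 CPM in WT, against 396, 487, 223 and 259 in pup2-ts and 402, 459, 280 and 275 in rpn5-ts. In every group replicates 1 and 2 were above replicates 3 and 4, at 396 to 570 against 223 to 370. Group means were 453 ± 109 (SD, n = 4) in WT, against 341 ± 122 in pup2-ts and 354 ± 91.3 in rpn5-ts; the differences of -112 and -99.5 did not pass an exact permutation test (two-sided p = 0.23 for both, adjusted p = 0.61 over 8 tests; 4 against 4 allow no p below 0.029). Set against the WT library of the same replicate number, each mutant was lower in 4 of 4 pairs, which the test above does not use. Within replicates 1 and 2 the differences were -104 and -115, and within replicates 3 and 4 -120 and -83.6.

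**Figure D4:**
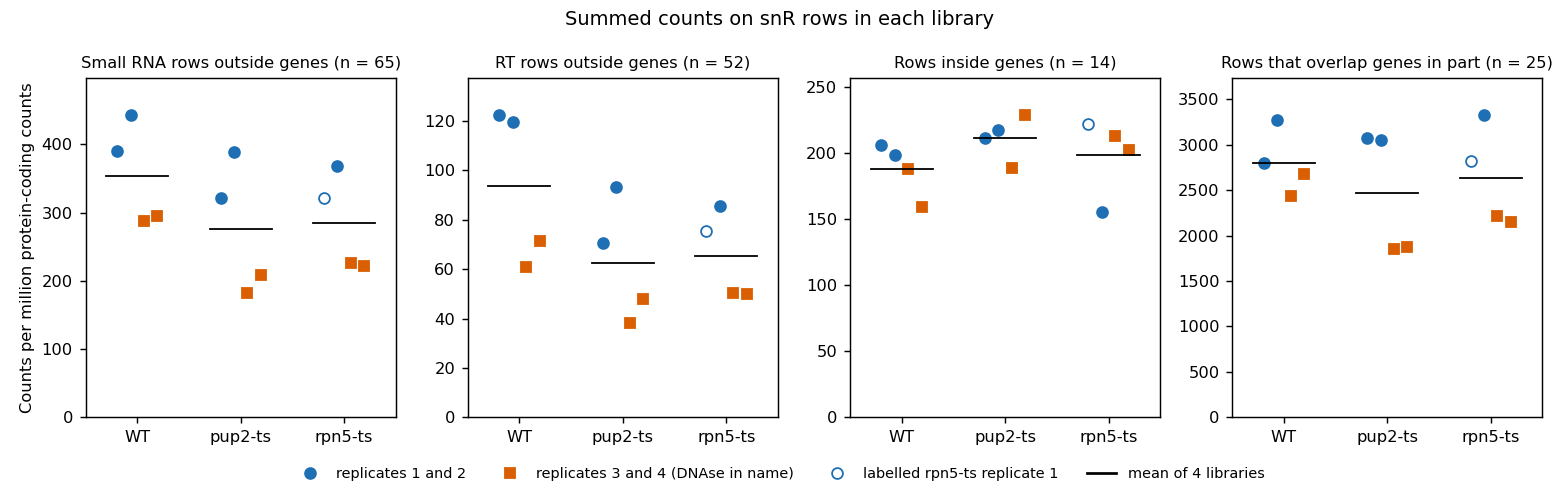
Summed counts as CPM of protein-coding counts (vertical axes, each from 0) in each library for small RNA rows and RT rows outside genes, rows inside genes and rows that overlap genes in part; circles are replicates 1 and 2, squares replicates 3 and 4, the open circle the doubted library, lines group means. Outside genes the name forms separate within every group, at 322 to 443 and 183 to 294 for small RNA rows, whereas inside genes they overlap.

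RT rows and small RNA rows fell together between the name forms. In 44 pairs outside genes, the summed counts of RT rows were 34.8 ± 5.04% (SD, n = 4) of those of the small RNA rows in WT, against 33.2 ± 2.37% in pup2-ts and 33 ± 2.67% in rpn5-ts. The highest value was 41.7%, in WT replicate 1, and the others ran from 29.5% to 36.5%. Neither difference passed an exact permutation test (two-sided p = 0.66 and 0.60), and this measure was added after the data were seen. The differences had opposite signs in the name forms, at -6.50 and -7.09 percentage points in replicates 1 and 2 and 3.28 and 3.34 in replicates 3 and 4. Without WT replicate 1 both overall differences, -1.61 and -1.88 percentage points, changed sign to 0.668 and 0.399.

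Rows inside genes drew 188 ± 20.5 CPM in WT, against 212 ± 17.0 in pup2-ts and 198 ± 29.5 in rpn5-ts (exact permutation test, p = 0.11 and 0.54). By form of name, pup2-ts differed from WT by 12.2 in replicates 1 and 2 and by 35.3 in replicates 3 and 4, and rpn5-ts by -13.6 and 34.3. This sum was carried by 1 row: SNR44-RT-RPS22B read 128, 138, 173 and 130 CPM in WT, against 176, 178, 187 and 223 in pup2-ts and 190, 105, 197 and 184 in rpn5-ts. Without it the differences from WT turned from 23.7 and 10.3 to -21.0 and -17.7 (exact permutation test, p = 0.057 and 0.086). It covers 560 bases of RPS22B, a ribosomal protein gene, and its read density was 158% of that of the whole host row (140% to 169% by library). Its log2 difference from WT in pup2-ts was 0.42 (adjusted p = 0.12, edgeR; 0.047 with the replicate block), beside 0.46 for RPS22B (adjusted p = 0.10, and 0.040 with the replicate block). The row, with a mean of 167 CPM, lies inside that of RPS22B at 292 CPM, so the 2 differences can rest on the same reads.

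The small RNA rows inside genes held little of their host's density. As means over the 12 libraries, SNR18 in EFB1 and SNR24 in ASC1 had 0.827% and 0.812% of it, SNR38* in TEF4 1.47%, SNR39 in RPL7A 2.22%, SNR59 in RPL7B 3.09%, SNR191 in NOG2 3.88% and SNR44 in RPS22B 18.4%. The RT rows snr18-RT, SNR38*RT, SNR39-RT and SNR59-RT had 1.78%, 1.59%, 1.90% and 5.39%. For comparison, rows antisense to a gene had a median of 1.24% of the gene's density (875 rows). Those rows can hold antisense RNA of their own, and the rows inside genes lie on the strand of their host. The value is therefore no measure of stray reads on the rows inside genes. A host transcript can itself supply the reads of such a row, which therefore does not measure the small RNA alone.

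**Figure D5:**
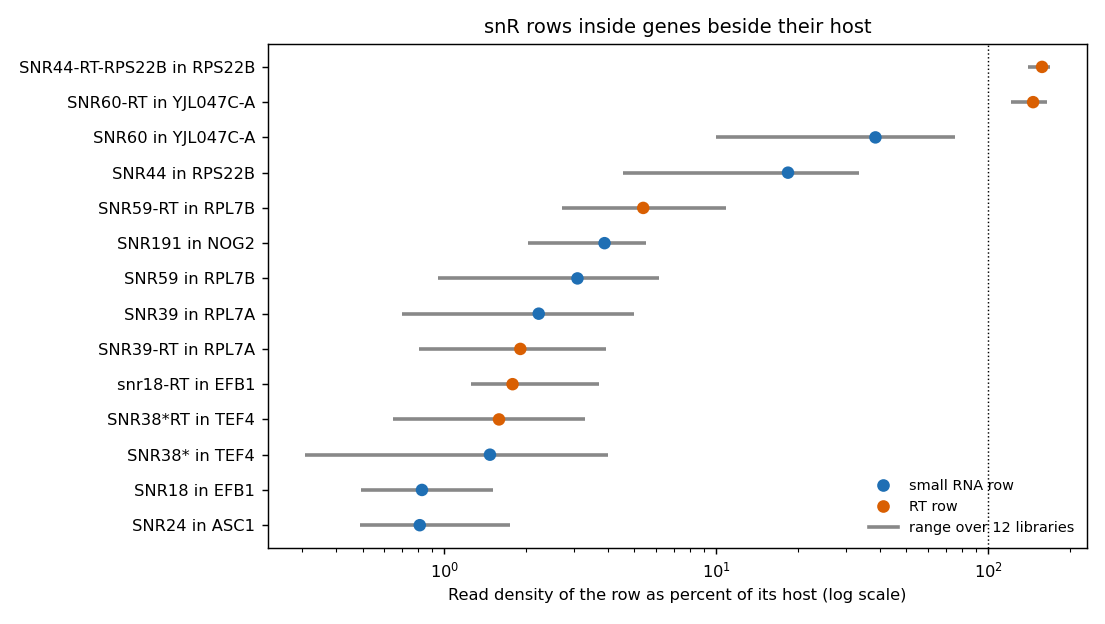
Read density of the 14 rows inside genes as a percentage of the density of the host row (horizontal axis, log scale); points are means over the 12 libraries, blue for small RNA rows and orange for RT rows, and grey bars span the lowest to the highest library. Of these rows, 10 lie below 6% of the host, and SNR44-RT-RPS22B and SNR60-RT lie above 100%.

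SNR60 and SNR60-RT differ from the others in that their host, YJL047C-A, is itself low at 9.91 CPM. SNR60-RT read 7.18, 13.8, 7.63 and 12.3 CPM in WT, against 4.52, 5.98, 1.71 and 2.10 in pup2-ts and 4.74, 6.72, 3.76 and 2.46 in rpn5-ts. It had 147% of the host's density (121% to 165% by library) and fell with it in pup2-ts, by 1.51 ± 0.41 on the log2 scale (adjusted p = 0.022, edgeR) beside 1.39 ± 0.37 for the host (adjusted p = 0.019). SNR60-RT, with a mean of 6.07 CPM, lies inside the host row, so the 2 falls can rest on the same reads. It no longer passed when WT replicate 2 (adjusted p = 0.0638) or pup2-ts replicate 3 (0.0599) or 4 (0.0673) was left out. In rpn5-ts the differences were -1.21 and -1.01 (adjusted p = 0.070 and 0.085; 0.0076 for the row with the block). SNR60, with a mean of 0.442 CPM, had 38.5% of the host's density.

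None of the other rows inside genes was called in either mutant by edgeR with all 12 libraries and no block. Other settings gave calls: DESeq2 called snr18-RT and SNR39 in pup2-ts (adjusted p = 0.028 for both) and SNR18 (0.032), snr18-RT (0.038) and SNR24 (0.025) in rpn5-ts, edgeR without the doubted library called SNR18 (0.0499) and snr18-RT (0.039) in rpn5-ts, and replicates 3 and 4 alone gave 12 and 8 falls among the 14 rows, where 36.2% and 24.7% of all rows fell. SNR18, a C/D guide for the large subunit, ran from 2.18 to 2.77 CPM in WT, against 0.836 to 2.15 in pup2-ts and 0.961 to 1.89 in rpn5-ts, without overlap (log2 -0.64 and -0.79, adjusted p = 0.12 and 0.081, edgeR; 0.038 and 0.022 with the block). SNR24 ran from 3.08 to 4.13 CPM in WT, against 1.78 to 2.85 in pup2-ts and 1.45 to 3.17 in rpn5-ts with overlap in rpn5-ts (log2 -0.64 and -0.76, adjusted p = 0.096 and 0.073, edgeR; 0.027 and 0.015 with the block). Their hosts EFB1 and ASC1 differed by -0.19 and -0.09 in pup2-ts and by -0.22 and -0.24 in rpn5-ts (adjusted p = 0.44 to 0.84). By log2 difference, 13 of the 14 rows were below WT in pup2-ts, and 12 of 14 were in rpn5-ts, with 8 and 6 falls under the block, where 28.5% and 21.6% of all rows fell, and 1 rise under it in pup2-ts, where 12.6% of all rows rose.

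With the name form, 10 of the 14 rows inside genes fell, where 32.2% of all rows did. Of the 8 genes known to host intronic snoRNAs, a list that holds IMD4 and not YJL047C-A, 2 fell: NOG2 (log2 -0.46, adjusted p = 6.4e-05, edgeR) and IMD4 (-0.36, adjusted p = 0.045, and 0.056 without the doubted library). YJL047C-A, the host of SNR60, fell too (-0.67, adjusted p = 0.026). SNR39 and SNR39-RT, for example, differed by -0.98 and -0.90 (adjusted p = 0.0011 and 0.00082) while RPL7A differed by -0.08 (adjusted p = 0.67). SNR59 and SNR59-RT differed by -1.22 and -0.86 (adjusted p = 0.0018 and 0.00079) while RPL7B differed by -0.11 (adjusted p = 0.27), and SNR191 by -0.89 (adjusted p = 0.0010). In the mutants 0 of the 8 listed host genes were called. SNR54 lies in an intron of IMD4, but its row spans 2201 bases, 99.9% of them within IMD4, and its mean of 880 CPM is that of the host.

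Of the genes that make and mature these RNAs, 1 was called in each mutant, where 9.46% of protein-coding rows rose and 7.61% fell in pup2-ts, and 8.04% and 5.07% in rpn5-ts. Of the 4 core proteins of C/D particles (among them NOP1, the methylase), the 4 of H/ACA particles (among them CBF5, the pseudouridine synthase), 9 assembly factors, 5 genes of Nrd1 termination and Rnt1 cleavage, 5 of TRAMP, 6 of 5′ trimming, debranching and capping and 14 Sm and Lsm proteins, 0 were called in either mutant. RRP6, the nuclear exosome exonuclease, was the only one of 13 exosome genes to fall, in rpn5-ts by 0.32 ± 0.097 on the log2 scale (adjusted p = 0.045, edgeR); it read 176, 159, 171 and 187 CPM in WT and 157, 129, 133 and 134 in rpn5-ts, without overlap. NAB2, a poly(A)-binding protein of the nucleus, was the only one of 4 genes of poly(A) addition and binding to rise, in pup2-ts by 0.47 ± 0.12 (adjusted p = 0.016); it read 215, 169, 177 and 189 CPM in WT and 232, 246, 285 and 278 in pup2-ts. With the replicate block more of these genes passed, among them NAB3 (adjusted p = 0.0042) and XRN1 (0.00014), higher in pup2-ts, and RRP42 (0.0047 in pup2-ts and 0.00029 in rpn5-ts), lower.

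The name form moved many of the same genes. Lower were 11 of 13 exosome genes (median log2 -0.52), 12 of 14 Sm and Lsm genes (median -0.50), 6 of 9 assembly factors and 2 of 4 core proteins of each particle, where 33.1% of all protein-coding rows were lower. RNT1, which cleaves precursors of these RNAs, fell from 129 to 168 CPM in replicates 1 and 2 to 69.3 to 89.5 CPM in replicates 3 and 4 (log2 -0.97 ± 0.051, adjusted p = 6.0e-09, edgeR). NAB3, a termination factor, rose from 72.4 to 113 CPM to 205 to 294 CPM (log2 1.32 ± 0.081, adjusted p = 2.1e-08). PAB1, the cytoplasmic poly(A)-binding protein, rose by 1.06 ± 0.10 (adjusted p = 1.3e-06), and XRN1, the cytoplasmic exonuclease, by 0.91 ± 0.067 (adjusted p = 1.1e-07). Whether these differences bear on the snR rows was not tested.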

How the data were processed

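Libraries of polyadenylated RNA from 12 yeast cultures were used. The authors deposited raw read counts per row, and the submitters' processing notes name STAR 2.5.2b, featureCounts, Subread 1.5.1 and sacCer3. Counts were tested with edgeR 4.0.16 in R 4.3.3 (robust quasi-likelihood F test, two-sided), over all rows that passed filterByExpr, in 1 fit of all 12 libraries. Library sizes and TMM factors came from protein-coding rows, and p was adjusted over all 11733 rows by the Benjamini-Hochberg method at 0.05; for the form of the sample name the group was a term. DESeq2 1.42.0 was an alternative. Summed counts were compared by exact permutation tests in SciPy 1.17.1. Named rows were, in each comparison, the up to 4 largest called changes in each direction without overlap of the groups (the 2 lowest p where fewer passed), spliceosomal RNAs, U3, the 3 highest levels per kilobase and all rows inside genes; others were chosen after their values were seen. The members and gene lists were chosen with earlier results of these data known. Fits with the replicate block that also leave out the library labelled rpn5-ts replicate 1, and the ratio of RT to small RNA rows, were added after seeing the data. Same-numbered libraries of different groups deviated together (12 correlations of 0.144 to 0.577), which by the rule used here pairs them. Of the 12 libraries, 6 were closest to a library of the same number in another group. The deviations still held the difference between name forms, and its part in the correlations was not tested. The labels give no shared culture or day. Replicates are called biological by the series; no pair of libraries agreed within sampling noise (lowest chi-square per degree of freedom 7.29). The fit was checked on simulated data.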

Additional observations from a re-analysis of the deposited data

Results flagged for a closer look

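In 11 of 120 groups of 4 libraries 1 library stood apart from the other 3, where chance gives about 1 in 20. SNR68-RT-FLX1 was high in WT replicate 2 (26.1 CPM, others 21.7 to 22.3) and in rpn5-ts replicate 4 (31.2 CPM, others 27.1 to 27.2). SNR189-RT was high in WT replicate 2 (1.89 CPM, others 0.608 to 0.735) and in pup2-ts replicate 3 (0.522 CPM, others 0.280 to 0.313). snR53-RT was high in rpn5-ts replicate 2 (2.18 CPM, others 0.320 to 0.408). The library labelled rpn5-ts replicate 1 was high for SNR14 (0.526 CPM, others 0.160 to 0.189), SNR39-RT (3.53 CPM, others 1.95 to 2.13) and SNR39 (2.69 CPM, others 1.54 to 1.66). SNR19 was low in rpn5-ts replicate 4 (6.14 CPM, others 10.6 to 11), SNR44 was low in WT replicate 1 (2.83 CPM, others 3.43 to 3.5), and SNR44-RT-RPS22B was low in rpn5-ts replicate 2 (105 CPM, others 184 to 197).

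The log2 difference of pup2-ts from WT was lower in replicates 3 and 4 than in replicates 1 and 2 for 7 rows, by a test of the difference itself in edgeR. Of all rows, 2.2% were lower by the same test. The difference of differences was -1.31 for SNR63 (adjusted p = 0.013), -0.77 for SNR33 (0.030), -2.21 for SNR39B-RT (0.032), -0.92 for SNR54 (0.034), -1.17 for SNR49 (0.036), -1.13 for SNR9 (0.040) and -0.89 for SNR54-RT (0.041). IMD4, in which both SNR54 rows lie, had -0.92 as well (adjusted p = 0.034).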

How the results depend on the processing

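Counts of called snR rows moved most. For pup2-ts against WT the 19 calls became 11 with library sizes from all rows, 10 with the libraries of the comparison alone, 31 with DESeq2, 62 with the form of name as a term and 82 with replicates 3 and 4 alone, and 5 to 35 with single libraries left out. In the same order, 9.87%, 11.8%, 19.4%, 31.2% and 36.2% of all rows fell, and 8.62% to 14.6% with single libraries left out. For rpn5-ts against WT the 7 calls became 16 with DESeq2, 55 with the form of name as a term, 15 with replicates 1 and 2 alone, 62 with replicates 3 and 4 alone, and 1 to 10 with single libraries left out. In the same order, 12.2%, 24.2%, 12.3% and 24.7% of all rows fell, and 4.02% to 7.56% with single libraries left out. Between the mutants the 0 calls became 20 with replicates 3 and 4 alone. Of the 132 rows tested there, 14 were higher and 6 lower in rpn5-ts, where 17.2% and 8.94% of all rows were. With the replicate block the calls were 57 in pup2-ts and 44 in rpn5-ts, and with the block while also leaving out the library labelled rpn5-ts replicate 1 (added after seeing the data) they were 58, 40 and, between the mutants, 2. These 2 rows were lower in rpn5-ts, where 1.4% of all rows were. In the same fit 30.2% of all rows fell in pup2-ts and 18.7% in rpn5-ts, each against WT. The 7 rows whose pup2-ts effect differed between name forms became 11 with library sizes from all rows and 0 to 26 with single libraries left out; for rpn5-ts the 0 became 0 to 8. The summed share of rows inside genes turned from 23.7 to -21.0 in pup2-ts and from 10.3 to -17.7 in rpn5-ts without SNR44-RT-RPS22B. The difference in RT rows as percent of small RNA rows ran from -3.38 to 0.668 in pup2-ts and from -3.65 to 0.399 in rpn5-ts over the libraries left out. The cause of these shifts was not tested. Other summary values kept their direction and their side of the threshold in 166 cases; values of single rows did so in 658 cases, lost the call in 88 and gained one in 3. Rows of few counts limit precision: 13 of 158 rows could not be tested.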
